A study of Mus musculus with 44 samples.

Results

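The inflammasome is a cytosolic protein platform of innate immune cells that turns a danger signal into active caspase 1. Sensor proteins (Nlrp3, Nlrp1b and Nlrc4 among them) assemble with the adaptor ASC, the product of Pycard, and with caspase 1, the product of Casp1, which cuts the precursors of interleukin 1 beta and interleukin 18 and the pore protein gasdermin D. P2X7, the product of P2rx7, is a cation channel opened by extracellular ATP, and the potassium that leaves the cell through it is a well-known trigger of NLRP3. In the brain these proteins are best known from microglia. DNA methylation at these 6 genes was described here in whole blood, hippocampus and frontal cortex. Each gene was represented by every cytosine measured by reduced representation bisulfite sequencing (RRBS) from 1000 bp before to 1000 bp after its RefSeq span in GRCm38 (mm10). RRBS enriches CpG-rich fragments, converts unmethylated cytosines with bisulfite and gives, at each cytosine, the percent of reads that were methylated. The rule found 136 cytosines of the 1654715 in the data, at 4 of the 6 genes. For comparison, 17794 of 21900 protein-coding genes had at least 1 cytosine. The 6 genes were chosen by their shared pathway and with their blood differences between LPS and saline known, so the blood values below are a description and carry no test.

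The mice were wild-type C57BL/6J males, 8 to 12 weeks old at arrival. All of them, the saline controls included, went through an exposure model of Gulf War Illness. It consisted of corticosterone (CORT) at 200 mg/L in drinking water with 0.6% ethanol for 7 days, the organophosphate diisopropyl fluorophosphate (DFP) at 4 mg/kg into the peritoneum on day 8, and further 7-day CORT courses in alternate weeks until week 5. They then received saline or lipopolysaccharide (LPS, the bacterial endotoxin) at 0.5 mg/kg under the skin. Tissue was taken 6 h after saline, and 6, 12 or 24 h after LPS, so every LPS time was set against the same saline mice, killed at 6 h. No group without CORT and DFP was analysed here. Blood had 4 saline libraries and 4, 3 and 3 at the successive LPS times, hippocampus had 3 saline libraries and then 4, 3 and 4, and frontal cortex had 4 in each group. The labels do not tie libraries to animals, and p-values therefore rest on the variation among these libraries, part of which may be technical.

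The 44 libraries were deposited as 9 tables, 1 for each tissue and LPS time, each with between 1083654 and 1380165 cytosines and no read counts, so the depth behind each value is unknown. The values of a saline library were identical in the 3 tables of its tissue wherever a cytosine was shared. Over the whole 6 h tables, mean methylation was 33.6% in blood after saline and 35.5% in blood 6 h after LPS, and 25.8% and 24.6% in hippocampus. The same saline hippocampus libraries averaged 30.9% in the 12 h table and 27.7% in the 24 h table, so such levels depend on the cytosines of a table. In the 6 h tables, genes that mark neurons averaged 14.9% in hippocampus, 16.9% in frontal cortex and 22.1% in blood after saline. Genes that mark neutrophils averaged 71.7%, 79.1% and 67.5%. These averages depend on the table too, with 16.5% and 13.8% for neuron genes of saline hippocampus in the 12 and 24 h tables. All levels are averages over the cells of a tissue, so a change in the mix of cells and a change within cells cannot be told apart.

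P2rx7 held 90 of the 136 cytosines, 26 of them in all 9 tables. Nlrp3 held 28, Nlrc4 12 and Nlrp1b 6. Pycard and Casp1 held 0 in all 9 tables, and nothing is said here of their methylation. P2rx7 (chromosome 5, 122643927 to 122692336, plus strand) has a pair of annotated RefSeq starts, at 122643927 and 122650383. Their start regions are shown because the blood profile changes around them. Each runs from 250 bases before to 50 bases after the start, is read 5′ to 3′ from RefSeq (GRCm38.p6), and has its CpG dinucleotides in capitals.
P2rx7 first start, chr5:122643677-122643976, plus strand: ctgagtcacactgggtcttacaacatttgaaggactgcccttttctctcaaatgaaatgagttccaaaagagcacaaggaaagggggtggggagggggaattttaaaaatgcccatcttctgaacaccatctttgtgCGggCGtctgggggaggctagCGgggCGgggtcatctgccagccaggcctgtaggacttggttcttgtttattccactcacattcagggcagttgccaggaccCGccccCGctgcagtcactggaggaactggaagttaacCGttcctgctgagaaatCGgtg
P2rx7 second start, chr5:122650133-122650432, plus strand: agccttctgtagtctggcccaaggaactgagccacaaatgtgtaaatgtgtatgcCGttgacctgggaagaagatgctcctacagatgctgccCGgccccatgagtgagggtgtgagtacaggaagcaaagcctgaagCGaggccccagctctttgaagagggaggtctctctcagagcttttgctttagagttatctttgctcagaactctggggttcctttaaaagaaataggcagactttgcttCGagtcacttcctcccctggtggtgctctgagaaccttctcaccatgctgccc
The first region holds 8 CpGs and no measured cytosine. The second holds 4, of which the second and the third were measured, at 122650226 and 122650271. The former lies in the only CCGG of that region, the palindromic sequence cut by MspI, the enzyme commonly used for RRBS. CCGG occurs in 52.8% of the 32851 start regions of this length, the median number of CpGs in them is 7, and 39.9% hold a measured cytosine. The start region of Pycard has 3 CpGs and 1 CCGG, and that of Casp1 has 3 CpGs. Neither of the start regions of Nlrp1b has a CpG.

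Over the 26 cytosines measured everywhere, P2rx7 methylation formed 3 bands that did not overlap. It was lowest in blood after LPS (35.0% to 39.3% over the 10 libraries), higher in blood after saline (49.5% to 51.8%) and highest in the brain (55.2% to 65.1% over the 30 libraries). By group, blood averaged 50.8% ± 1.01 after saline (SD, n = 4), 37.5% ± 1.59 at 6 h (n = 4), 37.0% ± 1.37 at 12 h (n = 3) and 36.5% ± 1.89 at 24 h (n = 3). The 3 LPS times differed by less than their SD, and the 8 brain groups lay between 58.5% and 61.9%. The authors may have normalised the tables of each tissue separately, so levels set across tissues are a description. The 26 cytosines hold none of the stretches that start 2.2 and 36.6 kb after the first start, where blood was higher after LPS (below). The bands therefore do not describe the whole gene, and the blood differences were smaller over all its cytosines.

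Over all its cytosines in each blood table (71, 52 and 64 at 6, 12 and 24 h), P2rx7 was lower after LPS, with no overlap of libraries at any time. At 6 h the saline libraries had 60.0%, 62.1%, 63.8% and 60.5% and the LPS libraries 57.6%, 57.9%, 57.6% and 54.6%. At 12 h, over fewer cytosines, saline had 55.1% to 58.9% and LPS 47.6%, 49.6% and 51.5%. At 24 h saline had 57.5% to 60.7% and LPS 54.3%, 54.5% and 52.4%. The differences of the means were -4.68, -7.56 and -5.04 percentage points. A share of 9.23%, 8.48% and 9.45% of all genes was lower without overlap at 6, 12 and 24 h, against 40.5%, 49.6% and 44% higher without overlap, and nothing is read from these shares because the genes were chosen with blood results known. The gene mean combined stretches that differed in opposite directions. Taking the median cytosine of each library turned the difference to +3.51 points at 6 h and +3.44 at 24 h, and averaging the strands of each CpG first gave -2.32, -4.24 and -1.86.

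**Figure D1:**
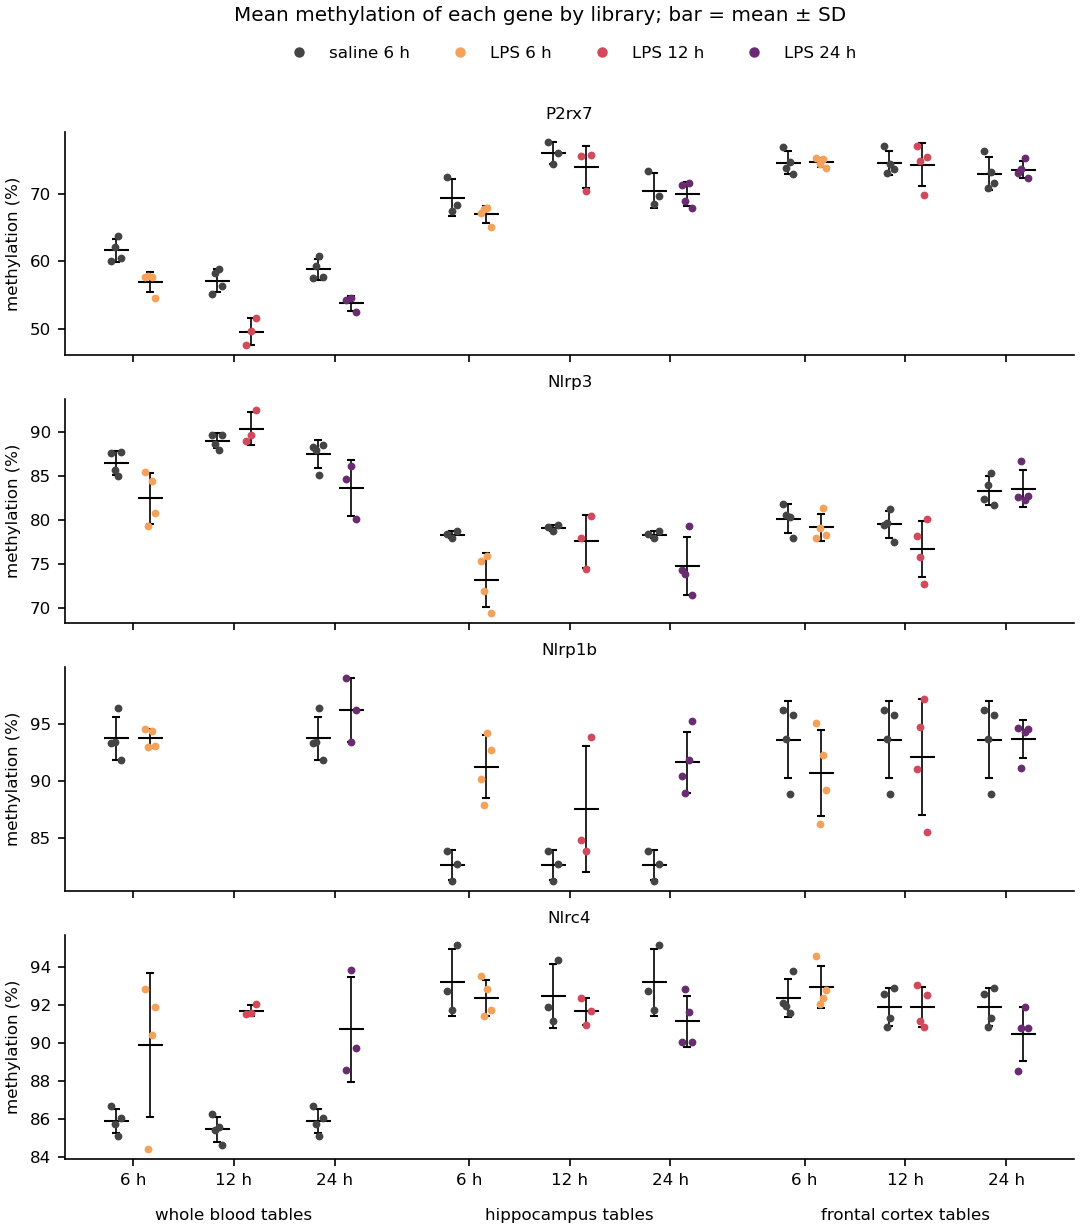
Mean methylation (%) over the cytosines of P2rx7, Nlrp3, Nlrp1b and Nlrc4 in each library, by tissue and table (time after LPS in hours); each point is 1 library, bars are mean ± SD, and the axes do not start at 0. Saline points differ between the tables of a tissue because each table holds its own cytosines. In blood the P2rx7 points after LPS lie below those after saline at all 3 times, and in hippocampus the Nlrp1b points at 6 h lie above those after saline.

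The profile along P2rx7 was split into windows of 1000 bp (tiles) with at least 3 cytosines. The 11 tiles tested at 6 h held 3 that were lower and 3 that were higher after LPS without overlap of the blood libraries. At 12 h the counts were 2 lower and 4 higher of 8, and at 24 h 3 lower and 4 higher of 11. Over all tiles, 11.9%, 11.3% and 12.5% were lower and 28.7%, 37.9% and 33.9% were higher at the 3 times. Of single cytosines, 15 of 62 were lower and 12 higher at 6 h, 13 of 45 and 10 at 12 h, and 16 of 57 and 15 at 24 h, against 8.29%, 9.16% and 10.2% lower and 20.2%, 27.3% and 24.9% higher over all cytosines.

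**Figure D2:**
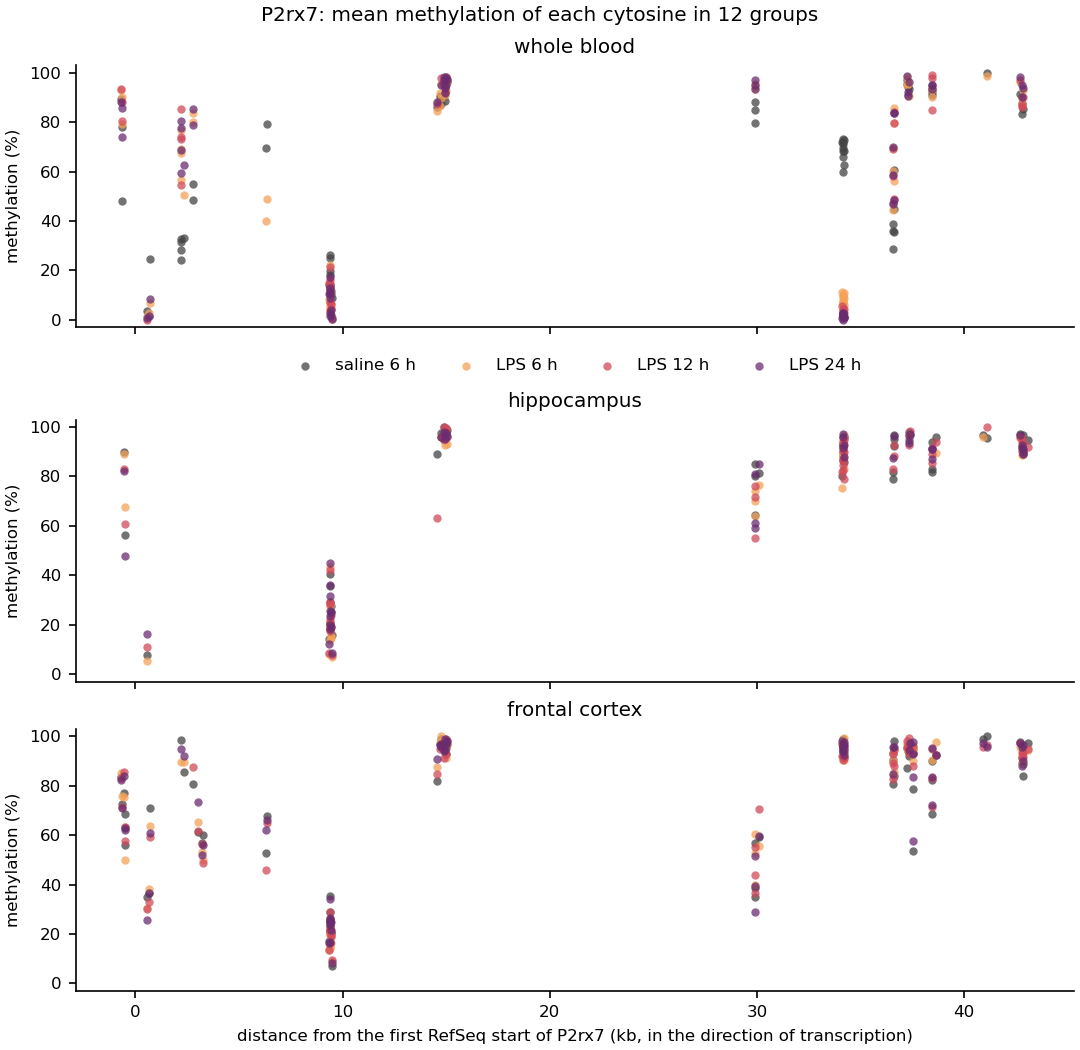
Mean methylation (%) of each cytosine of P2rx7 in the 4 groups of each tissue, against its distance in kb from the first RefSeq start in the direction of transcription. Each point is the mean of the 3 or 4 libraries of a group. In blood the cytosines near 34.1 kb lie between 59.9% and 73.3% after saline and at most 11.3% after LPS, and in both brain tissues the same stretch is highly methylated in all groups.

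The widest difference was in a stretch of 105 bp inside P2rx7, from 122678036 to 122678140, 34.1 kb after the first start and 27.7 kb after the second. It holds 11 measured cytosines, 6 on the plus and 5 on the minus strand. The saline blood libraries had 64.6%, 73.7%, 71.0% and 65.4% there. The 6 h LPS libraries had 2.8%, 18.4%, 9.3% and 3.4%. Those of 12 h had 2.3%, 2.9% and 3.2%, and those of 24 h had 1.7%, 1.8% and 1.1%. All 10 LPS libraries lay far below the lowest saline library, and the spread was widest at 6 h. The means were 68.7% ± 4.39 (n = 4) after saline, then 8.48% ± 7.23 (n = 4), 2.82% ± 0.455 (n = 3) and 1.55% ± 0.389 (n = 3), differences of -60.2, -65.9 and -67.1 points. All 11 cytosines differed alike, with saline means from 59.9% to 73.3% and LPS means from 5.85% to 11.3% at 6 h, 0.995% to 5.54% at 12 h and 0% to 2.76% at 24 h. The 3 with the widest range over all groups were those at 122678105, with 72.8% after saline and 10.8%, 4.25% and 1.16% after LPS, at 122678091, with 70.9% and then 7.45%, 1.20% and 2.43%, and at 122678036, with 72.1% and then 11.3%, 5.54% and 0.70%. Of all blood tiles, 23 of 74713 (0.0308%) were lower by as much at 6 h, 9 of 61847 (0.0146%) at 12 h and 14 of 71782 (0.0195%) at 24 h. The stretch was named for its range over these same values, so the shares describe its size and test nothing. Leaving out any library, centring the libraries or changing how cytosines were combined kept the 6 h difference from -63.5 to -58.3 points, the 12 h difference from -68.3 to -64.2 and the 24 h difference from -69.2 to -65.5.

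The same stretch stayed methylated in the brain. Hippocampus had 90.6% ± 0.606 (n = 3) after saline, 89.8% ± 3.28 (n = 4) at 6 h and 87.5% ± 3.70 (n = 3) at 12 h, and at 24 h, over 5 of the cytosines, 92.0% ± 2.67 after saline and 93.0% ± 4.84 (n = 4). Frontal cortex, over 10 cytosines, had 95% ± 1.68 after saline and 95.6% ± 1.05, 94.0% ± 2.23 and 95.6% ± 1.39 after LPS (n = 4 each).

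Further along the gene, a tile with 6 cytosines in 69 bp (36.6 kb after the first start) went the other way in blood. Saline libraries had 36.9%, 43.8%, 43.3% and 38.5%. The 6 h LPS libraries had 68.7%, 62.0%, 74.1% and 59.0%, those of 12 h 53.0%, 67.3% and 73.0%, and those of 24 h 62.9%, 73.7% and 58.8%. All LPS libraries were above all saline libraries, by 25.3, 23.8 and 24.5 points in the means (40.7% ± 3.45 after saline). A difference as large in this direction was found in 9.37%, 11.9% and 10.6% of all blood tiles. In frontal cortex the tile was at 89.3% ± 2.12 after saline over 5 of its cytosines.

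Near the first start, 2.2 to 2.8 kb after it, a tile with 7 cytosines was higher after LPS as well. The saline libraries had 35.2%, 33.5%, 43.6% and 32.5%. They were followed by 78.0%, 63.5%, 68.1% and 67.0% at 6 h and 74.8%, 75.3% and 69.8% at 24 h. At 12 h, over 4 of the cytosines, saline had 22.4%, 25.6%, 36.5% and 32.2% and LPS 78.0%, 64.7% and 72.4%. The libraries did not overlap at any time, and the means differed by 33.0, 42.5 and 37.1 points, a size reached in this direction by 6.17%, 4.31% and 5.47% of all blood tiles. Upstream, from -673 to -625 bp of the first start, 3 cytosines averaged 77.6%, 69.9%, 70% and 69.5% after saline. They averaged 83.3%, 93.1%, 84.0% and 89.7% at 6 h and 84.6%, 87.7% and 90.0% at 12 h, all above saline. At 24 h the LPS values of 83.3%, 88.9% and 75.6% overlapped those of saline.

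Other stretches in the first part of the gene had lower means in blood after LPS than after saline. In the tile 547 to 728 bp after the first start (3 cytosines), blood had 9.89% ± 2.46 after saline (n = 4), 3.73% ± 2.0 at 6 h (n = 4) and 3.58% ± 2.15 at 24 h (n = 3), where frontal cortex had 47.4% ± 4.79 after saline. A tile with 11 cytosines, 9.4 kb after the first start, had 15.9% ± 1.85 in blood after saline and 8.47% ± 2.34, 10.2% ± 2.96 and 7.48% ± 2.08 after LPS, with no overlap at any of the 3 times. Hippocampus had 24.3% ± 5.51 and frontal cortex 22.3% ± 5.83 there after saline. The measured pair of CpGs before the second start, at -157 and -112 bp of it, averaged 65.0%, 77.1%, 85.3% and 70% in saline blood and 36.8%, 62.5%, 53.3% and 25% at 6 h. All 4 LPS libraries were below all saline libraries. Those CpGs were not in the 12 h and 24 h blood tables, and frontal cortex had 60.3% ± 17.3 after saline there.

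The tile from 122658000 and those past the 36.6 kb tile held at least 86.9% in all 4 blood groups. The tile from 122658000 was higher without overlap at 12 and 24 h, but its direction turned when the libraries were centred on their own mean (-0.267 and -0.0821 points). The tile from 122686000 was higher without overlap at 24 h, with 84.2% to 89.5% after saline and 90.7% to 97.6% after LPS. In a further tile, 29.9 kb after the first start, frontal cortex had 43.4% ± 19.9 after saline, with a wide spread between libraries, where saline blood had 84.3% and saline hippocampus 76.5% ± 8.87, the libraries of the last 2 tissues overlapping. Its cytosine means in blood were 79.7% to 88.2% after saline. They were higher after LPS, with 93.4% to 95.5% at 6 h and 93.3% to 97.0% at 24 h. The tile was not among those higher without overlap.

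**Figure D3:**
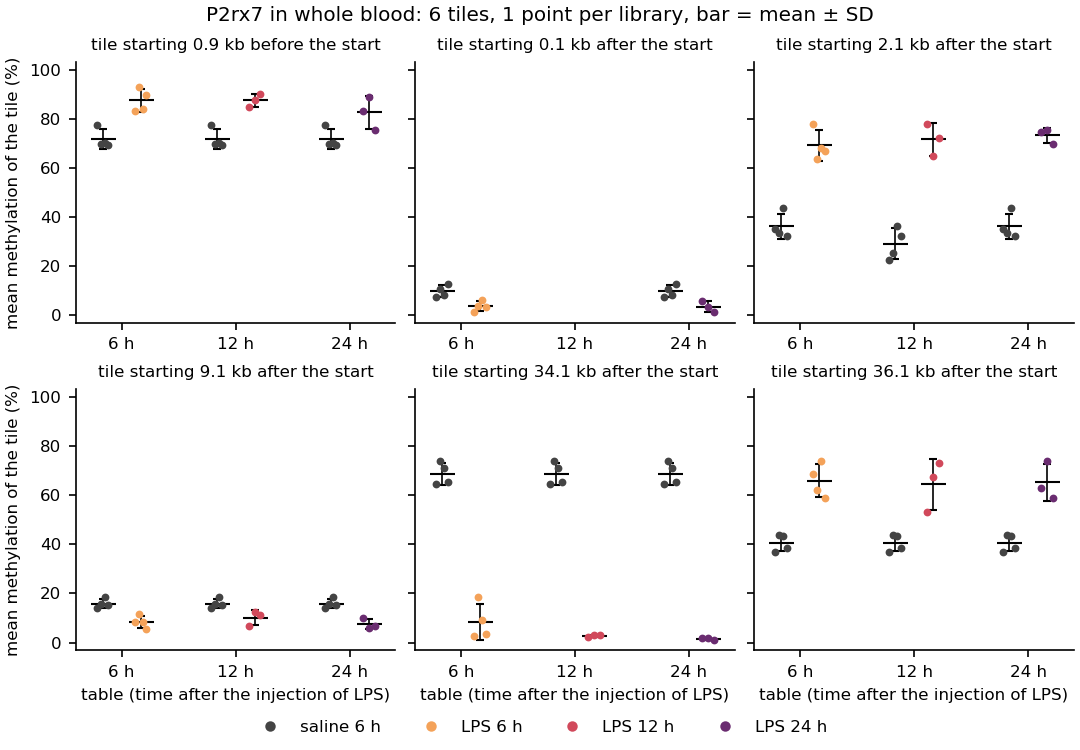
Mean methylation (%) of 6 tiles of P2rx7 in whole blood, by table (time after LPS in hours); each point is 1 library and bars are mean ± SD, with tiles named by the distance of their left edge from the first start. The LPS points lie below saline in the tile at 34.1 kb and above it in the tiles at 2.1 and 36.1 kb at all 3 times.

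Genes that mark neutrophils differed in the same blood libraries. Of the 15 genes on that list, 11 had enough cytosines. Their mean ranged from 66.7% to 68.9% over the saline libraries and from 46.0% to 50.5% at 6 h, from 63.7% to 66.1% against 38.2% to 45.1% at 12 h, and from 65.3% to 67.3% against 38.8% to 45.4% at 24 h. At the 3 times 10, 9 and 10 of the 11 were lower without overlap, against 9.23%, 8.48% and 9.45% of all genes, and none was higher. Genes used by all leukocytes differed less, from 57.5% to 59.9% after saline to 53.4% to 55.3% at 6 h. Other lists differed as well at 6 h. Monocyte and microglia genes had 73.4% to 75.1% after saline and 65.1% to 69.2% after LPS. B cell genes had 55.2% to 57.1% and 53.3% to 54.2%. Neuron genes were higher, with 21.6% to 22.4% and 27.2% to 29.9%. So were astrocyte and oligodendrocyte genes, with 39.9% to 41.0% and 42.9% to 46.3%. T cell genes, and erythroid and platelet genes, had lower means with overlap. Single genes of these lists and of the B cell list did not share that direction. The median gene difference was 1.31 points for B cell, 0.737 for T cell and 0.388 for erythroid and platelet genes. Of the genes tested, 2 of 7, 4 of 10 and 2 of 6 were higher without overlap, and 1, 2 and 1 were lower. The part of the cell mix in the P2rx7 profile was not tested.

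Among the sensors, Nlrc4, which responds with NAIP proteins to bacterial flagellin and secretion-system proteins, was higher in blood after LPS. It lies on chromosome 17 from 74426255 to 74459144 on the minus strand. At 6 h the saline libraries had 86.7%, 85.8%, 85.1% and 86.1%. The LPS libraries had 92.8%, 84.4%, 90.4% and 91.9%, the LPS library 2 lying below all saline libraries. At 12 h saline had 84.6% to 86.3% and LPS 91.5%, 91.6% and 92.0%. At 24 h saline had 85.1% to 86.7% and LPS 88.6%, 93.8% and 89.8%. The groups did not overlap at 12 and 24 h. Of all genes, 49.6% and 44% were higher without overlap at those times, and nothing particular to Nlrc4 is read from this. The Nlrc4 differences were 4.00, 6.25 and 4.83 points. The brain lay higher, with 88.6% to 95.1% over the 10 cytosines in all 9 tables, where saline blood had 84.6% to 86.3%.

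Within Nlrc4 the widest range was in a tile with 4 cytosines in 102 bp, 17.1 kb after the start. Saline blood had 75.6%, 79.1%, 76.0% and 76.9%. The 6 h LPS libraries had 85.4%, 78.7%, 86.0% and 85.6%, those of 12 h 89.6%, 87.2% and 87.6%, and those of 24 h 86.9%, 89.4% and 82.2%. Of the 10 LPS libraries, library 2 of the 6 h group fell within the saline range and the others lay above it. Over all blood tiles, 37.9% and 33.9% were higher without overlap at 12 and 24 h. The widest difference in the Nlrc4 tile was at the cytosine at 74442030, with 71.1% after saline and 90.4%, 95.4% and 92.0% after LPS. The cytosine at 74442001 had 60.7% and then 68.6%, 72.9% and 66.7%, and that at 74450075, in another tile, 76.1% and then 93.2%, 84.9% and 90.8%. Single cytosines higher without overlap numbered 1 of 11, 2 of 7 and 3 of 9 at the 3 times, near the 20.2%, 27.3% and 24.9% of all cytosines, and none was lower. In the brain this tile lay between 91.2% and 93.5% in all 8 groups.

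Nlrp3, the sensor downstream of P2X7, lies on chromosome 11 from 59541569 to 59566955 on the plus strand. In blood its libraries overlapped at all 3 times, with saline means of 86.5%, 89.0% and 87.5% in the 6, 12 and 24 h tables and LPS means of 82.5%, 90.4% and 83.6%. A tile with 15 cytosines had a mean above 90% in all groups. Another tile with 3 cytosines, from 59565000, had cytosine means of 85.2% to 89.7% in saline blood and 79.2% to 84.9% at 6 h. Its blood libraries overlapped at 6 and 24 h. A variable tile lay 1.3 to 1.7 kb after the second start of the gene. In that variable tile (7 cytosines in 341 bp), saline blood had 75.4%, 70.2%, 72.8% and 76.2% and blood 6 h after LPS 71.9%, 64.7%, 60.9% and 62.0%. At 24 h, over 5 cytosines, saline had 73.6%, 74.4%, 68.8% and 75.2% and LPS 61.3%, 60.9% and 50.8%. The 6 h libraries overlapped and the 24 h libraries did not, and at 12 h only 2 of the cytosines were in the table.

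The variable Nlrp3 tile was less methylated in the brain, and lower there in some LPS groups. Hippocampus had 48.8%, 48.4% and 47.9% after saline and 41.7%, 36.7%, 45.1% and 29.8% at 6 h, a difference of -10.1 ± 4.16 points (SE) that did not pass the limma test over all tiles (adjusted p = 0.242). All 4 LPS libraries were below all saline libraries. The values were 46.7%, 42.3% and 52.1% at 12 h (a difference of -1.33) and 41.0%, 38.6%, 49.4% and 33.8% at 24 h (-7.67, limma adjusted p = 0.596). In frontal cortex the differences were -4.54, -9.15 and +5.48 points from saline means between 40.6% and 45.5%, with no direction in common. The cytosine at 59544009 had 56.5% in saline hippocampus and 38.2%, 64.3% and 40.5% after LPS at 6, 12 and 24 h, and that at 59544030 had 57.2% and then 38.7%, 65.0% and 45.8%. The cytosine at 59544207 had the widest range over the groups, from 88.9% in saline blood to 29.9% in frontal cortex 12 h after LPS, and in hippocampus it had 51.7% after saline and 39.4%, 35.0% and 46.1% after LPS. Over the whole gene, hippocampus at 6 h had 78.3% ± 0.389 after saline (n = 3) and 73.2% ± 3.04 after LPS (n = 4), with no overlap and a limma adjusted p of 0.0962.

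Nlrp1b, a sensor that in mice is cleaved by anthrax lethal factor, gave the only brain difference among these genes that passed the test, in hippocampus at 6 h. It lies on chromosome 11 from 71152574 to 71242514 on the minus strand, next to the similar genes Nlrp1a and Nlrp1c-ps, so reads here may have come from a near-identical copy. Over its 5 cytosines the saline libraries had 83.9%, 81.3% and 82.7% and the LPS libraries 90.1%, 87.9%, 94.2% and 92.7%. The groups did not overlap, and methylation rose by 8.61 ± 1.68 points (SE), from 82.6% ± 1.30 (n = 3) to 91.2% ± 2.77 (n = 4), with an adjusted p of 0.0426 (limma, two-sided, Benjamini-Hochberg over 11155 genes). In that comparison 721 genes (6.46%) passed, and 719 of them (6.45%) were lower and 2 (0.0179%) higher after LPS. That count was itself unstable: it was 1 with libraries centred, 0 without saline library 1 or 3, 5 without saline library 2, and 3, 1, 223 and 110 without LPS library 1, 2, 3 and 4. The median difference over all genes was -0.989 points. Marker genes of several cell classes had lower means in the same LPS libraries. The mean over astrocyte and oligodendrocyte genes (9 of 11 measured) ranged from 30.4% to 32.2% after saline and from 24.7% to 29.0% after LPS, and that over B cell genes (7 of 8) from 59.2% to 61.0% and from 54.3% to 58.8%. Neuron genes (10 of 10) had 14.5% to 15.2% and 13.2% to 14.2%, and neutrophil genes (11 of 15) 71.0% to 72.9% and 68.5% to 69.8%. None of these 4 ranges overlapped between saline and LPS. Leukocyte genes (61.7% to 62.2% and 57.7% to 60.7%) were lower without overlap too. The same held for T cell genes (57.3% to 58.8% and 55.8% to 57.1%) and erythroid and platelet genes (25.9% to 26.9% and 24.0% to 25.5%). Only monocyte and microglia genes overlapped, with 69.7% to 74.0% and 67.4% to 71.5%. The part of these shifts in the Nlrp1b result was not tested. The Nlrp1b call was lost without any one of the 7 libraries (adjusted p 0.0533 to 0.126), and 12 of 18 alternatives lost it in all, over which the difference stayed between 7.63 and 11.5 points.

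At 12 h the hippocampus libraries had 84.8%, 83.9% and 93.8% (87.5% ± 5.50), 1 of them within the saline range. At 24 h they had 90.5%, 89.0%, 91.8% and 95.2% (91.6% ± 2.69), all above saline, with a limma adjusted p of 0.338. No gene of the whole table passed at either time. At an unadjusted p under 0.05, limma had 275 genes at 12 h and 1135 at 24 h. The difference lay in 4 minus-strand cytosines within 61 bp, 4.5 kb after the start at 71201456. There the saline libraries had 81.7%, 76.6% and 78.4%, those at 6 h 88.6%, 85.5%, 94.2% and 91.8%, those at 12 h 81.0%, 79.8% and 93.5%, and those at 24 h 88.9%, 87.5%, 90.4% and 95.7%. The 6 h and 24 h libraries were all above saline, and neither the difference of 11.2 points nor that of 11.7 passed over all tiles (limma adjusted p = 0.102 and 0.373). The cytosine at 71196934 had the widest range, with 70.8% after saline and 87.2%, 76.7% and 88.4% after LPS. That at 71196983 had 76.5% and then 86.6%, 82.1% and 89.9%, and that at 71196994 had 78.3% and then 87.3%, 89.2% and 88.5%. Saline hippocampus, at 78.9% ± 2.57, lay below saline frontal cortex (93.2% ± 4.14, over 3 of the cytosines) and saline blood (92.9% ± 1.80). In blood Nlrp1b had 93.7% after saline, 93.7% at 6 h and 96.2% at 24 h, with overlap, and 2 cytosines at 12 h.

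**Figure D4:**
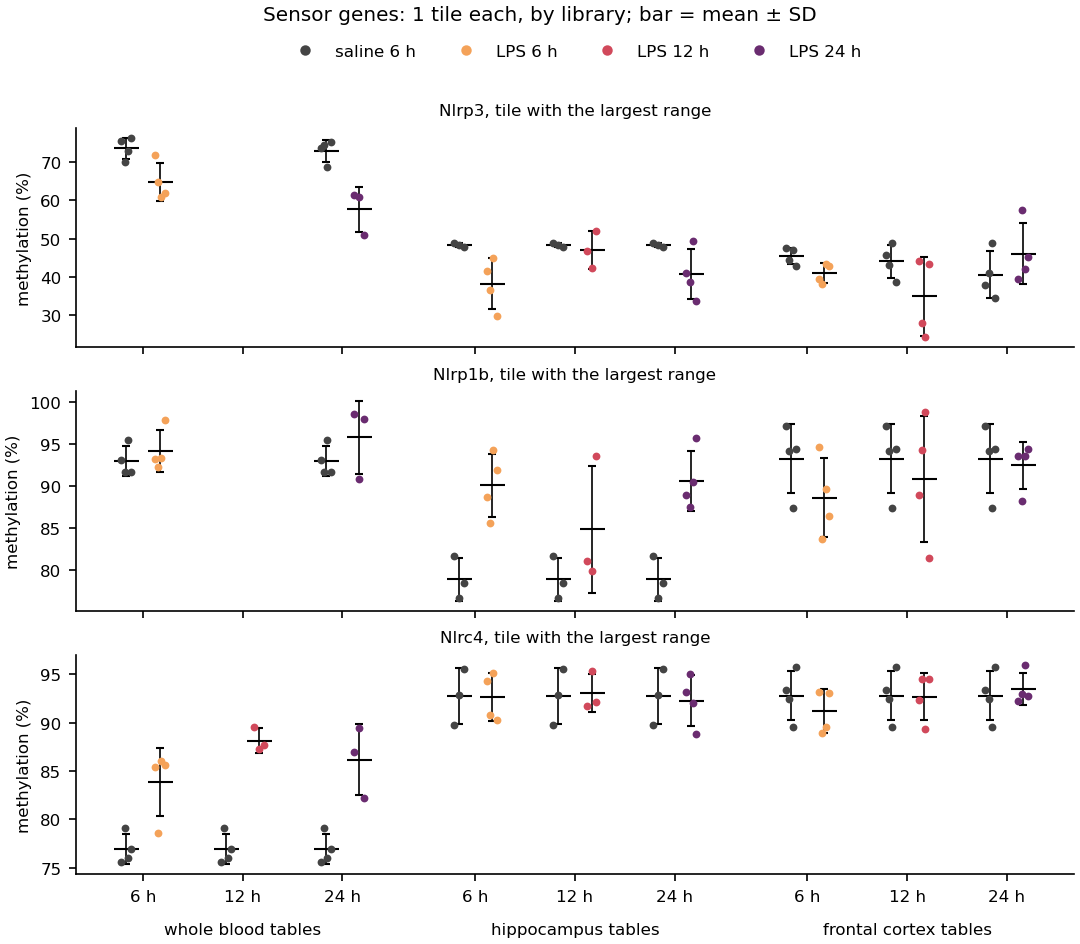
Mean methylation (%) of the tile with the widest range of group means in Nlrp3, Nlrp1b and Nlrc4, by tissue and table (time after LPS in hours); each point is 1 library, bars are mean ± SD, and the axes do not start at 0. Blood tables with fewer than 3 cytosines of a tile are left blank. The Nlrp1b points of hippocampus lie above saline at 6 and 24 h, and the Nlrc4 points of blood lie above saline at 12 and 24 h.

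Of the other brain comparisons of whole genes, none passed. P2rx7 differed by -2.48, -2.09 and -0.552 points in hippocampus at 6, 12 and 24 h and by 0.0421, -0.245 and 0.623 points in frontal cortex. Nlrc4 differed by -0.821, -0.813 and -2.04 points in hippocampus and by 0.574, -0.0159 and -1.41 in frontal cortex. Nlrp3 differed by -1.53 and -3.59 points in hippocampus at 12 and 24 h and by -1.01, -2.76 and 0.216 in frontal cortex, and Nlrp1b by -2.92, -1.49 and 0.0442 in frontal cortex. In frontal cortex limma called 0 genes of the whole table at each time, with 181, 187 and 287 at an unadjusted p under 0.05. No tile or single cytosine of these genes passed in either brain tissue. Of their tiles, 2 of 9, 1 of 12 and 2 of 11 in hippocampus and 1 of 14, 2 of 17 and 1 of 16 in frontal cortex had an unadjusted limma p under 0.05. Over all tiles the shares were 18%, 3.65% and 9.2% in hippocampus and 2.98%, 2.98% and 3.25% in frontal cortex.

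The wider pathway was described with 4 lists of 56 genes that leave out the 6 genes above. In blood, of the listed genes with enough cytosines, 16 were higher and 4 lower without overlap of 39 at 6 h, 23 and 3 of 37 at 12 h, and 18 and 3 of 38 at 24 h. Beside them stand the shares of all genes given above (40.5%, 49.6% and 44% higher, 9.23%, 8.48% and 9.45% lower), and no difference between the lists and all genes was tested. Their median difference was 1.93, 4.68 and 3.08 points, beside 1.15, 1.65 and 1.27 over all genes. P2rx1, an ATP-gated channel of platelets and leukocytes, was lower by most, with 51.8% ± 2.32 after saline (n = 4) and 27.7% ± 1.64 (n = 4), 27.0% ± 1.05 (n = 3) and 27.0% ± 1.89 (n = 3) after LPS. Ninj1, which carries out the rupture of the plasma membrane in lytic cell death, had 26.2% ± 0.694 and then 19.3% ± 1.60, 20.3% ± 1.62 and 19.4% ± 1.29. Both were lower without overlap at all 3 times.

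The listed genes that were higher included Il1r1, the signalling receptor of interleukin 1, with 59.2% ± 2.41 after saline and 76.1% ± 2.33 at 6 h. The decoy receptor Il1r2 had 66.1% ± 2.72 and 77.9% ± 5.27. Gsdma, a gasdermin, had 26.7% ± 2.22 and 42.3% ± 3.92, and Sigirr, an inhibitory receptor of the family, 20.1% ± 1.32 and 31.5% ± 1.56. By list, 7 of 18 sensors and regulators, 2 of 7 caspases and gasdermins, 4 of 6 interleukin 1 genes and 3 of 8 P2X and ATP genes were higher at 6 h, against 40.5% of all genes, and 1 in each was lower. At 12 h 11 of 17, 2 of 7, 6 of 6 and 4 of 7 were higher, against 49.6% of all genes. Nlrc3, a negative regulator among the sensors, had 64.3% ± 5.16 after saline and 80.9% ± 3.42 after LPS at 12 h. In hippocampus and frontal cortex limma called none of the listed genes at any time.

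Over the 12 group means, the genes most like P2rx7 were Krt8, Sp100 and Pgc (Pearson r = 0.998, 0.995 and 0.995 among 2085 genes compared). Those most like Nlrc4 were Serpina12, Grk1 and Tfpi (0.965, 0.961 and 0.961 among 6584), and those most like Nlrp3 were Pde2a, Gm9257 and Inpp5d (0.903, 0.878 and 0.874 among 8708). The 12 means share libraries and tissues, and Nlrp1b, with 1 cytosine in all tables, was not compared. At least 5 cytosines in all tables were needed. The P2rx7 means cover its 26 shared cytosines, which leave out stretches that were higher in blood after LPS. The likeness therefore does not describe the whole of P2rx7.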

How the data were processed

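The deposited values are percent methylation of each cytosine in each library, made by the authors. The submitters' processing notes name Bismark, Bowtie2, methylKit, SAMtools, FastQC and Trim Galore, with GRCm38 (mm10). Versions, the coverage minimum and any normalisation were not stated there. Of 234881 measured positions in start regions, 99.9996% lay at a CpG of the sequence.

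Groups and replicate numbers came from the labels. Each gene value is the mean over its cytosines in a table, computed per library. Genes and tiles of 1000 bp needed at least 3 cytosines, and all features, single cytosines included, a mean from 5 to 95%. Brain comparisons used limma 3.58.1 in R 4.3.3 (lmFit and eBayes with trend, two-sided, Benjamini-Hochberg over all features), called at an adjusted p under 0.05, with at least 5 points for tiles and 10 for cytosines. Blood was described by library overlap. Percent values give no read counts, so no intervals for counting error were made.

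In a simulation, normal libraries were drawn around the saline gene means with the saline spread. A subset of genes of intermediate methylation was moved. The fit recovered 61% of 5-point and 88% of 10-point changes in hippocampus at 6 h (11155 genes in the fit), and 46% and 82% at 12 h. The spread after LPS and the shift over all genes were not modelled. Recovery at the high levels of Nlrp1b, Nlrp3 and Nlrc4 was not measured. The 6 genes and all lists were chosen with earlier results of these data known. Named were the 6 genes, at most 5 listed genes in each direction per comparison (the largest differences), the 3 cytosines and the tile with the widest range per gene, and the 3 most alike genes. A few further P2rx7 tiles were named after their values were seen. Exon and intron positions were not used here. Alternatives changed the scale, centring, cytosine sets, limits, replicate block and libraries. Marker lists for 8 cell classes were averaged per library. One gene that this rule would name is not reported here.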

Additional observations from a re-analysis of the deposited data

Results flagged for a closer look

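In 93 groups of 4 libraries the highest or lowest library was looked at for a wide gap to the rest, a rule by which chance flags about 1 in 20 groups. It picked 6. In blood, LPS library 4 at 6 h had 54.6% over P2rx7 where the others had 57.6% to 57.9%. Saline library 3 had 85.1% over the Nlrp3 cytosines of the 24 h table, below 88.0% to 88.5% in the others. In the Nlrc4 tile 17.1 kb after the start, LPS library 2 at 6 h had 78.7% where the others had 85.4% to 86.0%. In frontal cortex at 24 h, LPS library 2 stood apart over Nlrp3 (86.7% against 82.2% to 82.8%), over Nlrp1b (91.1% against 94.3% to 94.6%) and in the Nlrp1b tile (88.2% against 93.5% to 94.4%).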

How the results depend on the processing

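The Nlrp1b call in hippocampus at 6 h, the only call among these genes, went to 0 on a log2 ratio scale, with libraries centred, with the median over cytosines, with no limit on the mean and with a replicate block (adjusted p 0.0944), and to between 0 and 0 without 1 library each. The labels do not say whether libraries with the same number are paired. In the brain, correlations over genes between saline and LPS libraries ran from -0.216 to 0.288 for the same number. They ran from -0.393 to 0.383 for other numbers. With so few libraries in a group this cannot exclude a pairing. The whole-table count of 721 genes was 1 with libraries centred or with no limit on the mean, 2 with the median, 0 with the replicate block, 329 over cytosines in all 3 tables, 462 with at least 1 cytosine and 397 without the trend, from 0 to 223 without 1 library each, and at most 873, and that of hippocampus at 12 h was 397 without LPS library 2 in place of 0. In blood P2rx7 differed by -6.59, -10.01 and -7.07 points at 6, 12 and 24 h with libraries centred, by -7.08 and -8.27 at 6 and 24 h over cytosines in all 3 blood tables, by -2.32, -4.24 and -1.86 with strands averaged, and by 3.51 and 3.44 with the median at 6 and 24 h; its tile from 122658000 by -0.267 and -0.0821 centred at 12 and 24 h and by -1.19 with the median at 24 h. The causes were not tested. The direction of small brain differences turned. With libraries centred, Nlrc4 had 0.341 in hippocampus at 6 h and 0.217 in cortex at 12 h, P2rx7 0.0039 in hippocampus at 24 h (0.127 with the replicate block), and in cortex at 24 h Nlrp1b had -0.223 (-0.0663 on the log2 ratio scale) and Nlrp3 -0.0505. With the median, the Nlrp3 tile had 2.63 in hippocampus at 12 h, and in cortex Nlrc4 had -0.131 at 6 h, P2rx7 2.58 at 12 h, Nlrp3 -0.663 and the Nlrp1b tile 0.804 at 24 h. P2rx7 in cortex at 6 h had -0.0566 over cytosines in all 3 tables and -0.136 with strands averaged. Without 1 library each, hippocampus ranged from -1.56 to 0.153 (6 h) and -1.47 to 0.132 (12 h) for Nlrc4, -2.94 to 0.0474 for Nlrp3 and -3.86 to 1.04 for its tile at 12 h, and -1.57 to 0.907 for P2rx7 at 24 h. Cortex ranged from -0.495 to 0.831, -1.17 to 1.27 and -0.0864 to 1.73 for P2rx7 at 6, 12 and 24 h, -0.396 to 0.325 for Nlrc4 at 12 h, -3.18 to 0.711 and -1.55 to 0.901 for Nlrp1b and -5.07 to 0.736 and -2.76 to 0.596 for its tile at 12 and 24 h, and -0.826 to 0.878 for Nlrp3 at 24 h. Depth is unknown, so values over few cytosines may rest on few reads.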
